A study of Mus musculus with 7 samples.

Results

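Melanocyte and pigment genes were examined in a mouse study of basal cell carcinoma, a skin tumour driven by the Hedgehog pathway. The 10 genes were Tyr, Tyrp1, Dct, Pmel, Mlana, Mitf, Slc45a2, Oca2, Mc1r and Ednrb, and every probe set that the platform annotation assigned to exactly 1 of them was taken, which gave 19 of the 34945 probe sets that named exactly 1 gene (10 of 18193 genes). Probe sets were taken by annotation alone, without use of their values. The study hybridised 7 single-channel Affymetrix arrays: 2 of dissected basal cell carcinoma, 2 of normal epidermis taken from newborn mice at postnatal day 0, and 3 of PDKC1, a cultured mouse basal cell carcinoma line. PDKC1 was measured without cyclopamine (0 h) and after 6 h and 10 h with it, with 1 array per time. Cyclopamine is a plant alkaloid that blocks Hedgehog signalling at Smoothened. The sources used here do not give strain, genotype, sex, age of the tumour-bearing mice, cyclopamine dose or vehicle, nor the origin of PDKC1 beyond its name. The tissue arrays used 100 ng of RNA each and the PDKC1 arrays 2 µg, so cell source and RNA input cannot be told apart between them.

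Melanocytes come from the neural crest and make melanin in an organelle, the melanosome. MITF is the transcription factor that switches on the pigment genes. The enzymes TYR, TYRP1 and DCT carry out melanin synthesis on fibrils built from PMEL, and the receptors MC1R and EDNRB receive signals from keratinocytes and other cells. In mice, melanocyte precursors lie in the epidermis before birth and then collect in hair follicles, so pigment genes can be measured in newborn epidermis.

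Values are signal intensities on a linear scale, and differences are on the scale log2(intensity + 16), tumour minus epidermis unless stated. A probe set was called when its adjusted p was under 0.05 by limma over all 34945 probe sets. The median probe set of an array had an intensity of 71.2 to 128.2, so values near or under this range are dim. Tumour arrays had the higher medians, 118.4 and 128.2, against 71.2 and 75.5 in epidermis, and the 3' to 5' intensity ratio of the Actb controls was 11.3 and 93.1 for the tumours and 3.98 and 2.84 for epidermis. On the PDKC1 arrays the same ratio was 1.15 to 1.21, so 5' signal also differed between tissue and PDKC1. The part of these differences in 5' signal in the results was not tested. Labels do not say whether arrays of a group came from different mice, so the p-values cover only the spread between these arrays, which may be technical. All epidermis was newborn and the age of the tumour-bearing mice is unknown here, so tumour and age cannot be told apart. In these bulk samples fewer melanocytes and less pigment RNA per melanocyte cannot be told apart either. Labels were checked on markers. On all 4 tissue arrays 14 of the 19 probe sets lay over the array median, among them Dct at 4365 to 7174. That median is over all probe sets, and those that name 1 gene had higher medians on these arrays, 97.0 to 151.6. The share of all such probe sets over the array median was not counted, so the 14 have no background. Keratinocyte genes Krt5 and Trp63 were bright on every array (Krt5 at 26659 to 35513), and the Hedgehog target Gli1 was at 2192 and 1933 in the tumours and at 190.2 and 292.9 in epidermis. In PDKC1 the latter fell from 841.9 at 0 h to 193.2 at 6 h and 189.6 at 10 h of cyclopamine. Krt1, a keratin of differentiating layers, was at only 28.3 in PDKC1 at 0 h.

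Dct, Pmel, Tyrp1 and Mitf had probe sets well over the array medians in both tissues, and the pigment genes differed unequally between the tissues. By brightest probe set, Tyrp1 was higher in tumour by 6.79-fold, Mitf was higher by 2.26-fold and Pmel was lower by 1.91-fold. Dct and the other genes were not called. Other probe sets of Tyrp1 and Mitf gave smaller differences, and the Mitf and Pmel calls were lost under some alternatives. Of the 19 probe sets 3 were called higher, where 16.6 percent of all probe sets were, and 1 was called lower, where 10.7 percent were. The shares of calls among the pigment genes were therefore near or under the background. The median difference over the 19 probe sets was 0.03, against 0.13 over all probe sets. Tumour and epidermis arrays did not overlap for 7 probe sets that were higher in tumour (36.5 percent of all probe sets) and for 8 that were lower (27.7 percent). With quantile normalization the calls were 3 higher and 3 lower, and with the median of every array set equal (centring) 2 higher and 5 lower. Over all probe sets the share of calls that were higher went from 61.0 percent to 45.5 and 28.1 percent under these scalings, and the median difference from 0.13 to -0.18 and -0.40. Calls of 1 direction are therefore given with their size relative to the median of all probe sets.

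**Figure D1:**
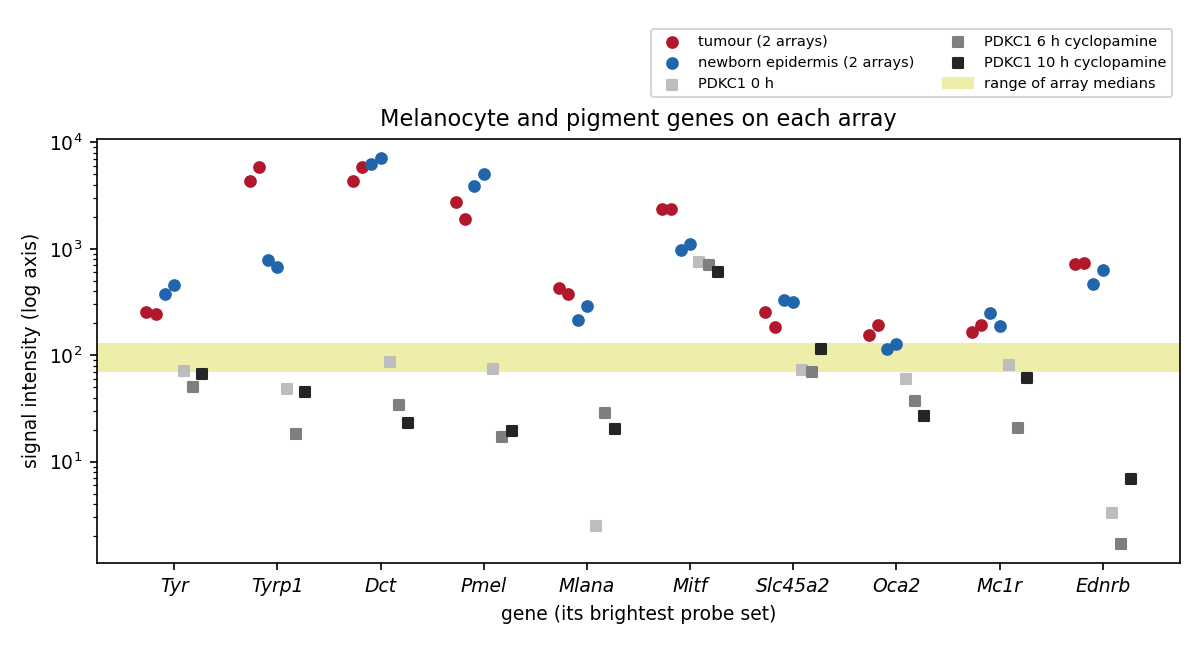
Signal intensity (log axis) of the brightest probe set of each gene on each of the 7 arrays, with circles for tumour (red) and newborn epidermis (blue) and squares for PDKC1 at 0 h, 6 h and 10 h of cyclopamine. The shaded band spans the array medians, 71.2 to 128.2. Tyrp1 was at 4320 and 5896 in tumour against 792.3 and 672.7 in epidermis, and in PDKC1 every gene but Mitf was in or under the band.

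The 3 melanin enzymes are products of related genes. TYR, tyrosinase, catalyses the rate-limiting oxidation of tyrosine, DCT converts dopachrome, and TYRP1 acts downstream in the synthesis of dark eumelanin. Their upstream sequences carry the M-box, an element around the core CATGTG that MITF binds, and are shown because these 3 genes share that element. Of the 3, only Tyrp1 was called between the tissues on the values as deposited. Each line gives 250 bases before the start of transcription, 5′ to 3′ on the gene's strand, from RefSeq on GRCm38.p6. Capitals mark AGTCATGTGCT, the longest run around CATGTG that windows of at least 2 of the genes share, in Tyr and Tyrp1, and its 10-base part GTCATGTGCT, the longest shared by 3 genes, in Dct, and in Dct also an opposite-strand copy of the 7-base core TCATGTG.
Tyr, chr7:87493513-87493762, minus strand: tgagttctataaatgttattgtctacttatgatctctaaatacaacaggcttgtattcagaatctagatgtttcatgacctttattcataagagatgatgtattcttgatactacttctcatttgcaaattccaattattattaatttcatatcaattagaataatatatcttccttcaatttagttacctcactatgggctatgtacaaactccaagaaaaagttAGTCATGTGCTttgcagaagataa
Tyrp1, chr4:80833963-80834212, plus strand: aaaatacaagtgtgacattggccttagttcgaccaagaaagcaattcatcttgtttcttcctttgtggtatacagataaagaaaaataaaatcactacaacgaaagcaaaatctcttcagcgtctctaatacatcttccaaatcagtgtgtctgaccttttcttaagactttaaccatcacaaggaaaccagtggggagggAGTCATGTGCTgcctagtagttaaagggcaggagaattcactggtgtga
Dct, chr14:118052247-118052496, minus strand: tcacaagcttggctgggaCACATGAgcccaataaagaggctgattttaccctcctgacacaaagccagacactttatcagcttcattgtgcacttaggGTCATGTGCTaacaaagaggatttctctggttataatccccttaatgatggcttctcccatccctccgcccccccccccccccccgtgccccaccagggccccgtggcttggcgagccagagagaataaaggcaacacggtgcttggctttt
The 11-base run began 24 bases before the start in Tyr and 49 bases before it in Tyrp1. The 10-base part began 152 bases before the start in Dct, and the opposite-strand core spanned bases 232 to 226 before it. Of 32851 such windows, searched on both strands, 0.0213 percent held AGTCATGTGCT, 0.155 percent held GTCATGTGCT and 3.25 percent held TCATGTG, each shorter motif lying inside the longer one. Windows were found for 7 of the 10 genes, 9 windows in all. Since the longer runs were found in these windows, their rarity elsewhere is a description only. Besides these 3 genes, TCATGTG occurred in the window of Mc1r. A match describes letters only and says nothing of binding in these samples.

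Tyrp1 had the largest difference of the 10 genes on the values as deposited. Its brightest probe set, 1415861_at, read 4320 in tumour 1 and 5896 in tumour 2, and 792.3 and 672.7 in epidermis 1 and 2. Both tumours lay far over both epidermis arrays, and the log2 difference was 2.76 ± 0.24 (adjusted p = 0.000866; here and below ± is the SE of the fit, with n = 2 per tissue). Relative to the median of all probe sets the difference was 2.63, and it was 2.99 with quantile normalization and 2.42 with median centring. A second probe set, 1439409_x_at, whose suffix marks probes that may match other transcripts, was at 2807 and 3783 in tumour and 608.2 and 832.6 in epidermis. It gave 2.17 ± 0.26 (adjusted p = 0.00197). Both probe sets were called without any 1 of the tissue arrays, with adjusted p up to 0.0193 and 0.0418. The third, 1415862_at, was much dimmer at 284.0 and 291.2 in tumour and 140.0 and 267.4 in epidermis, and was not called (0.53 ± 0.39, adjusted p = 0.376). With the mean of the 3 probe sets Tyrp1 differed by 1.82 (adjusted p = 0.00346).

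Dct, one of the earliest markers of the melanocyte lineage, was bright in both tissues and was not called. It was at 4365 and 5840 in tumour and 6225 and 7174 in epidermis. The tumours were a little lower without overlap, by 0.40 ± 0.24 (adjusted p = 0.277). Its direction relative to all probe sets depended on the scaling, being -0.53 as deposited, 0.14 with quantile normalization and -0.75 with centring. It was called lower with centring (-1.15, adjusted p = 0.0120) and without tumour 2 (-0.61, adjusted p = 0.0352).

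Tyr itself was measured by 3 probe sets that did not move alike. The brightest, 1417717_a_at, was at 253.2 and 245.4 in tumour and 374.1 and 461.7 in epidermis, with the tumours lower (-0.70 ± 0.29, adjusted p = 0.125). It was called lower with quantile normalization (-1.34, adjusted p = 0.0233) and with centring (-1.41, adjusted p = 0.0119). Probe set 1456095_at was at 205.4 and 370.4 in tumour against 152.3 and 278.0 in epidermis, and 1448821_at was at 31.5 and 121.5 against 49.4 and 74.7. Both had overlapping groups, were not called (adjusted p = 0.566 and 0.950), and turned to negative differences with either scaling.

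**Figure D2:**
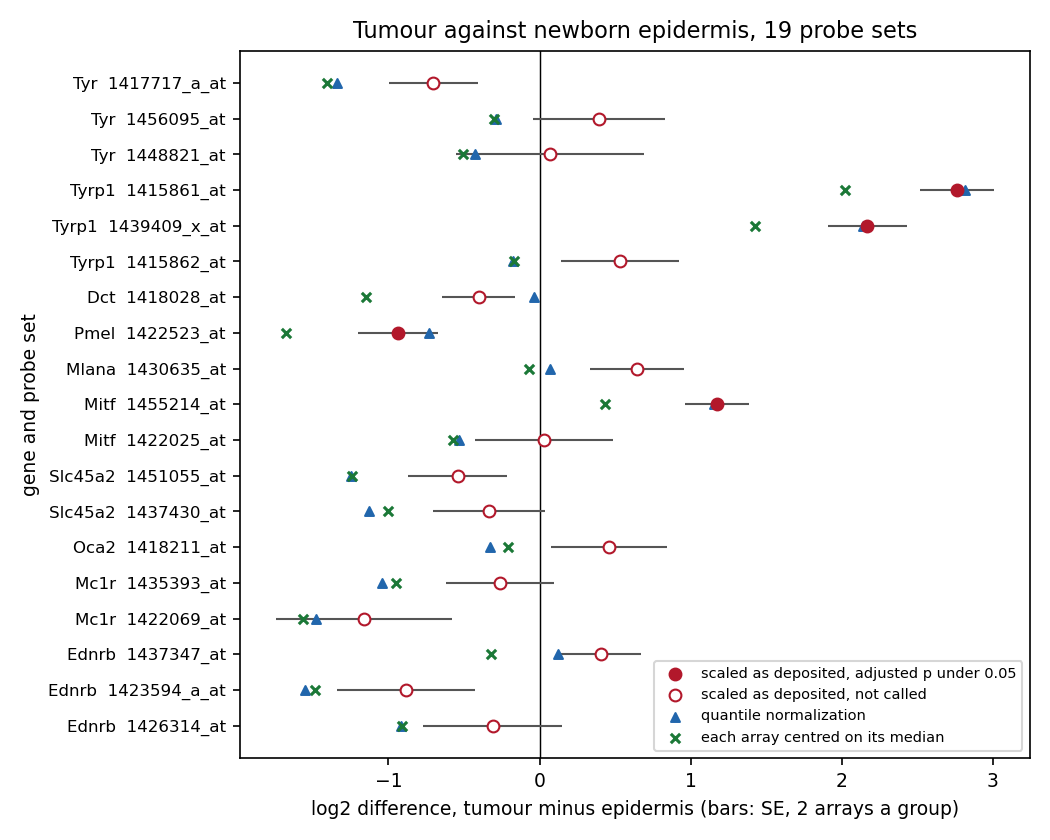
Log2 difference, tumour minus newborn epidermis, for each of the 19 probe sets. Circles with SE bars (2 arrays per group) are the values as deposited, filled where called, and triangles and crosses are the same differences after quantile normalization and median centring. Tyrp1 at 2.76 and 2.17 stands to the right under all 3 scalings. Pmel at -0.93 was called lower but does not stand apart from Mc1r (1422069_at, -1.16) and Ednrb (1423594_a_at, -0.89), which were not called.

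The members that build the melanosome were next. Pmel, whose protein forms the fibrils on which melanin is deposited, was lower in tumour. Its probe set was at 2758 and 1921 in tumour and 3862 and 5044 in epidermis, and the groups did not overlap (-0.93 ± 0.27, adjusted p = 0.0399). Relative to all probe sets it was -1.07 as deposited, -0.55 with quantile normalization and -1.28 with centring. The call was lost with quantile normalization (adjusted p = 0.0987), without a variance trend (0.121), without epidermis 1 (0.156), without epidermis 2 (0.321) and with 1 mean value per gene (0.0515). Mlana, known as MART-1, encodes a small melanosome protein that aids PMEL processing. It was at 429.7 and 373.2 in tumour and 215.6 and 290.4 in epidermis, higher in tumour without overlap but not called (0.64 ± 0.31, adjusted p = 0.175). With centring it was -0.07. Pmel and Mlana thus had opposite signs as deposited.

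Slc45a2 and Oca2 encode melanosome membrane proteins that set the organelle's pH, and neither was called. For Slc45a2 the brighter probe set, 1451055_at, was at 256.7 and 183.1 in tumour and 327.5 and 319.3 in epidermis (-0.54 ± 0.33, adjusted p = 0.276). It was called lower with quantile normalization (-1.25, adjusted p = 0.0450) and with centring (-1.24, adjusted p = 0.0312). Its other probe set differed by -0.34 (adjusted p = 0.564). Oca2 lay just over the array medians, at 153.8 and 192.9 in tumour and 115.6 and 126.3 in epidermis (0.46 ± 0.39, adjusted p = 0.437), and was -0.33 and -0.21 under the quantile and centring scalings.

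Mitf, the regulator of the pigment genes, was higher in tumour on its bright probe set. Probe set 1455214_at was at 2368 and 2356 in tumour and 966.4 and 1109 in epidermis, with no overlap (1.18 ± 0.21, adjusted p = 0.00765). Relative to all probe sets it was 1.05 as deposited, 1.33 with quantile normalization and 0.83 with centring. The call was lost with centring (0.44, adjusted p = 0.187), without epidermis 1 (adjusted p = 0.139) and without epidermis 2 (0.0920). The dim probe set 1422025_at was at 71.1 and 79.9 in tumour and 62.9 and 85.5 in epidermis and did not separate them (adjusted p = 0.971). With the mean of both, Mitf differed by 0.60 (adjusted p = 0.108).

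Mitf is also expressed by mast cells and by cells of the macrophage lineage, and its bright probe set was the only one of the 19 that lay over the array median on all 3 PDKC1 arrays, at 747.1, 709.8 and 611.0. Of all genes, each by its brightest probe set, 16.4 percent were called higher in tumour and 12.2 percent lower. Of 8 mast cell markers 5 were called higher and 0 lower. Among the higher were the histidine decarboxylase gene Hdc (4.69) and Ms4a2, which encodes a subunit of the IgE receptor (4.38). The count was 3 without epidermis 1, 2 without epidermis 2 and 3 with dim probe sets left out, while Hdc and Ms4a2 were called without any 1 tissue array. Their summed intensity was 4721 and 5128 in tumour, 1016 and 530.0 in epidermis and 152.7 to 188.9 in PDKC1. Of 10 macrophage markers 2 were higher, Mrc1 and Mpeg1, and 1 was lower, Adgre1, near the shares of all genes. Their sums were 11452 and 12281 in tumour and 9689 and 8202 in epidermis. Those 3 calls were lost without either epidermis array, and both higher ones also with centring and without a variance trend. A large part of the macrophage sums was Csf1r, not called, at 6288 and 7957 in tumour and 6152 and 4565 in epidermis. The median intensity of the 10 macrophage markers was 385 and 196 in tumour and 440 and 450 in epidermis. The lowest intensity in the data was 0.1, so a marker value over 0 does not show that these cells were present. The part of mast cells and macrophages in the Mitf difference was not tested.

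Mitf is transcribed from several starts, of which 3 have windows in RefSeq. The one farthest along the gene is shown, because it alone of the 9 windows holds TGACGTCA, the cAMP response element through which CREB acts when MC1R signals. Capitals mark the element, which begins 153 bases before the start, and 1.55 percent of all windows hold it.
Mitf, chr6:97991533-97991782, plus strand: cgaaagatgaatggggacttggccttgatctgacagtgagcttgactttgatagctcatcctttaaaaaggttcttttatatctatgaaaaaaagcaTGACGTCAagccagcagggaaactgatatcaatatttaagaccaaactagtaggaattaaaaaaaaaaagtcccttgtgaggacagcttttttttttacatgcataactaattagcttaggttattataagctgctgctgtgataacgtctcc
The annotation used here does not say which of these starts each probe set covers.

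Of the receptor genes, neither was called. Mc1r encodes the melanocortin receptor, which drives eumelanin synthesis. Its brighter probe set, 1435393_at, was at 165.0 and 192.1 in tumour and 251.9 and 186.7 in epidermis, with overlap (-0.26 ± 0.36, adjusted p = 0.646). Probe set 1422069_at was dim, at 39.2 and 5.70 against 53.6 and 70.1 (-1.16 ± 0.58, adjusted p = 0.193). Ednrb encodes an endothelin receptor that melanocyte precursors need to migrate. Probe set 1437347_at was at 717.8 and 733.7 in tumour and 463.0 and 637.0 in epidermis, higher in tumour without overlap (0.41 ± 0.26, adjusted p = 0.311), but -0.32 with centring. Its other 2 probe sets, at 52.8 to 153.4 in the tissues, had negative differences (-0.89 and -0.31, adjusted p = 0.206 and 0.676). The probe set 1423594_a_at of this pair was called lower with quantile normalization (-1.55, adjusted p = 0.0469) and centring (-1.49, adjusted p = 0.0383).

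Endothelial and Schwann cells can also express Ednrb, and some of their markers were called higher in tumour. By brightest probe set, 16.4 percent of all genes were called higher and 12.2 percent lower. Of 12 endothelial markers 5 were called higher and 0 lower, with sums of 2393 and 1790 in tumour and 757.1 and 653.6 in epidermis. Vwf, the von Willebrand factor gene, differed by 3.04, and the receptor genes Tek and Flt1 by 2.39 and 2.34. The endothelial count was 1 without epidermis 1, 2 without epidermis 2, 3 without tumour 2 and 1 with dim probe sets left out. Tek and Flt1 were not called without either epidermis array (adjusted p from 0.0551 to 0.0816). Among 9 markers of Schwann cells, 5 rose and 1 fell, with sums of 5132 and 3345 against 1526 and 1521, including Egfl8, the myelin gene Pmp22 and S100b (3.47, 3.35 and 3.18). The fall was in Mbp, another myelin gene (-1.57, named after its value was seen), and was not called without either epidermis array. The Schwann cell count of higher markers was 3 without epidermis 1 and 3 without tumour 2. In PDKC1 the sum of the Schwann cell list was 3801 to 4416, and Cdh2, one of its markers, was at 1935 to 2298. With such values in a carcinoma line, the sum is no measure of Schwann cells. Under either other scaling 3 endothelial and 3 Schwann cell markers were higher. Fibroblast markers were higher for 8 of 10 and lower for 1, led by Pdgfrb, Col1a1 and Pdgfra (4.68, 4.19 and 3.51), and 6 were higher without either epidermis array. Keratinocyte markers were lower for 5 of 11 and higher for 0, with Flg at -2.54, Krt1 at -2.48 and Lor at -1.88. That count was 2 without either epidermis array and 2 without a variance trend, 3 with quantile normalization, which had 1 higher, and 8 with centring. Lor was not called with quantile normalization (adjusted p = 0.105) or without epidermis 1 or 2 (0.157 and 0.125). The part of these other cell types in the pigment gene values was not tested.

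Offsets between pigment genes within an array were examined after their values were seen. Multiplying a whole array leaves them nearly as they are, and quantile normalization moves them. An offset includes the probes' own brightness, so only its change between arrays can be read. That change can still hold probe effects that differ between the tissues, as their 3' to 5' ratios did, which was not tested. Only the brightest probe set of each gene was used. The other Tyrp1 probe sets differed between the tissues by 2.17 and 0.53, and the other Mitf probe set by 0.03. Tyrp1 minus Dct was -0.01 and 0.01 in the tumours and -2.95 and -3.38 in epidermis, a change of 3.17. Tyrp1 minus Pmel was 0.64 and 1.61 against -2.26 and -2.88, a change of 3.70. Mitf minus Dct was -0.88 and -1.30 against -2.67 and -2.68, a change of 1.58. With quantile normalization these changes were 2.85, 3.55 and 1.19. In each of these pairs the groups were apart by more than the arrays within a group. Dct minus Pmel was 0.66 and 1.60 against 0.69 and 0.51, with overlap. With 2 arrays per group an exact permutation test cannot give a two-sided p under 0.333, so no p is given.

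**Figure D3:**
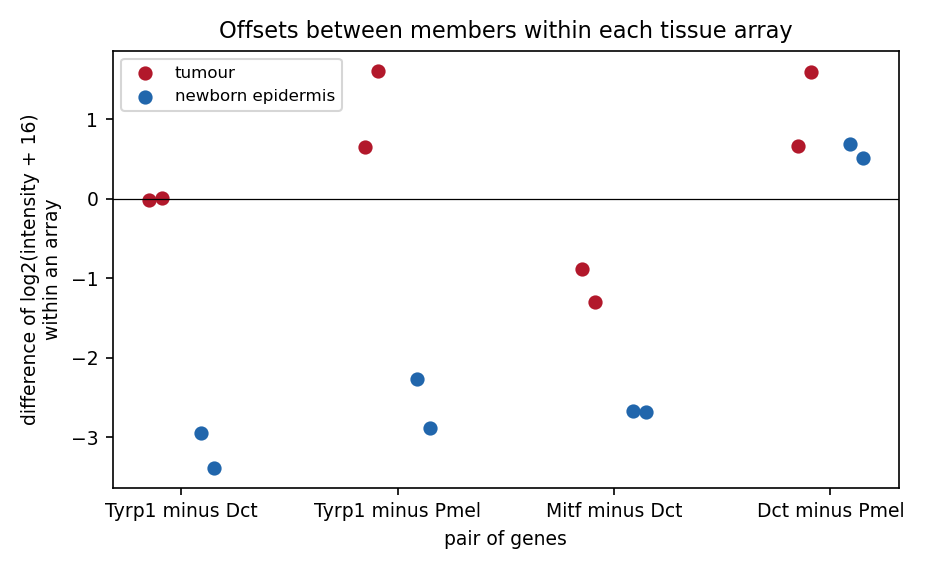
Offset between the brightest probe sets of pairs of pigment genes, as the difference of log2(intensity + 16) within each tissue array (red, 2 tumour arrays; blue, 2 newborn epidermis arrays). Tyrp1 minus Dct sits at -0.01 and 0.01 in tumour and at -2.95 and -3.38 in epidermis, while Dct minus Pmel overlaps.

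In PDKC1 cells the pigment genes other than Mitf were near or under the array median. Dct was at 85.6, Pmel at 74.5, Tyr at 71.8, Tyrp1 at 48.0 and Mlana at 2.50 at 0 h on their brightest probe sets. Ednrb, on the probe set that read 463.0 to 733.7 in the tissues, was at 3.30, 1.70 and 6.90 at the 3 times. Of the 19 probe sets 14 were lower on all 3 PDKC1 arrays than on all 4 tissue arrays, where 17.8 percent of all probe sets were, and 0 were higher on all, where 21.6 percent were. The intensity of the dimmest tissue array divided by that of the brightest PDKC1 array was 67.1 for Ednrb, 51.0 for Dct, 25.8 for Pmel, 14.0 for Tyrp1 and 7.54 for Mlana. It was lower for Tyr (3.42), Mc1r (2.05), Oca2 (1.93), Slc45a2 (1.61) and Mitf (1.29). Apart from Mitf the PDKC1 values in these ratios were dim, so the ratios describe intensities and are no measure of the fold in RNA. No test was made, as the PDKC1 arrays are single arrays at different times.

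After cyclopamine 11 of the 19 probe sets were lower at both times by any amount, where 35.6 percent of all probe sets were. That share covers every brightness, and no share at like brightness was counted. Many of the 19 were dim, as 11, not all of them the same, were over the array median on no PDKC1 array. At least 2-fold lower at both 6 h and 10 h were 2 of the 19 probe sets, where 2.72 percent of all probe sets were, and 0 were at least 2-fold higher, where 1.83 percent were. The 2 were Dct, which went from 85.6 at 0 h to 34.1 at 6 h and 23.0 at 10 h (-1.02 and -1.38), and Pmel, which went from 74.5 to 16.9 and 19.5 (-1.46 and -1.35). These levels lay around or under the array medians of 72.4 to 78.3. Among probe sets whose brightest PDKC1 array lay over its median, 0.976 percent fell this way, and of 8 such pigment probe sets 1 did, Dct. Among dimmer probe sets the share was 5.6 percent. With rises and falls counted together, 0 of the 19 passed 2-fold at both times with a pseudocount of 64, and 5 with 4. Not all of those 5 fell. Mlana, under the median on all 3 arrays, rose from 2.50 to 28.6 and 20.1 (1.27 and 0.96). Mitf, the member with a clear signal, went from 747.1 to 709.8 and 611.0 (-0.07 and -0.28). Gli1 and Ptch1, which the pathway induces, changed by -2.04 and -1.65 at 6 h and by -2.06 and -1.96 at 10 h. Hhip, the other measured target, changed by -0.39 at 6 h and -1.54 at 10 h. With 1 array per time none of these changes has a replicate check.

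**Figure D4:**
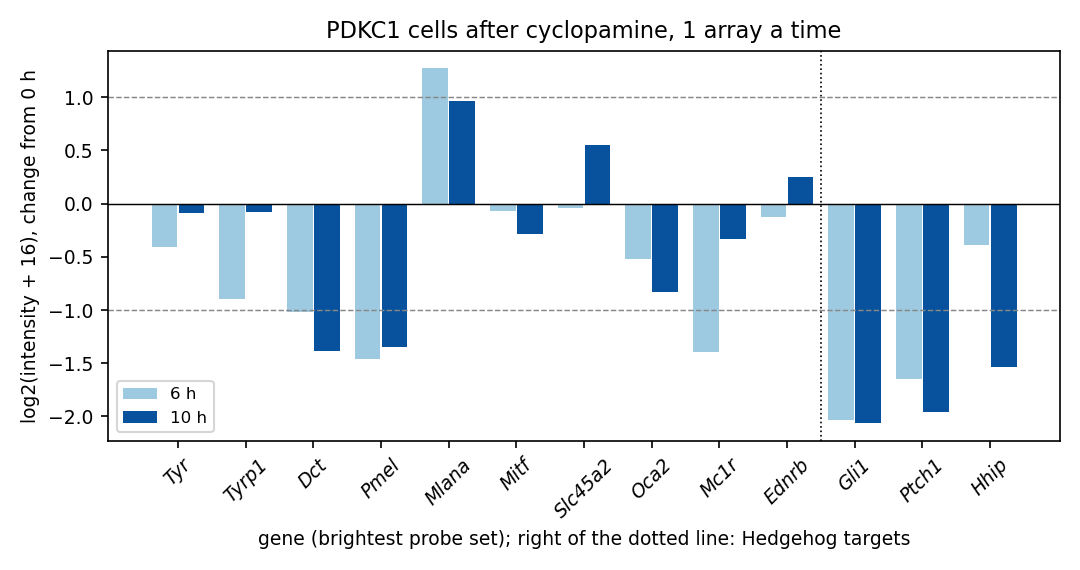
Change from 0 h in log2(intensity + 16) after 6 h (light bars) and 10 h (dark bars) of cyclopamine in PDKC1 for the brightest probe set of each pigment gene and, right of the dotted line, for 3 Hedgehog targets; dashed lines mark 2-fold and each bar is 1 array against 1 array. Dct (-1.02 and -1.38) and Pmel (-1.46 and -1.35) pass the lower line at both times from 0 h levels of 85.6 and 74.5. Mlana rose by 1.27 and 0.96 from a 0 h level of 2.50, while Mitf moved by -0.07 and -0.28.

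Other genes of the pigment system were taken from lists, each gene by its brightest probe set. By that measure 16.4 percent of all genes were called higher and 12.2 percent lower. Of 12 regulators and receptors of the lineage 3 were higher and 1 lower, with a median of 0.46, which turned to -0.29 with centring. Those called were Zeb2, a repressor of epithelial genes that is also found in mesenchyme (3.18 ± 0.31, adjusted p = 0.00108), the transcription factor genes Tfap2b (2.05) and Sox9 (1.54), and the receptor gene Erbb3 (-1.05), the last outside the naming rule. Sox9 was not called under either scaling or without either epidermis array, nor Erbb3 without either of those arrays (adjusted p = 0.167 and 0.147). Regulators close to Mitf were not called and are named after their values were seen. Sox10, which activates Mitf, was at 99.4 to 151.6 in the tissues and 86.3 to 116.8 in PDKC1, near the array medians throughout. Pax3 was at 322.3 and 424.3 in tumour, 223.5 and 213.8 in epidermis and 6.40 to 15.0 in PDKC1 (0.72 ± 0.31, adjusted p = 0.139). Kit, the receptor for stem cell factor, which mast cells also carry, was at 529.0 and 392.4, 354.7 and 460.5, and 3.30 to 56.7 in the same order (adjusted p = 0.734).

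Among other genes of the melanosome the calls were near the background. Of 12 other melanosome genes 2 were lower and 0 higher, with a median of -0.08; 1 was higher with dim probe sets left out or without epidermis 2. Rab38, a small GTPase that delivers TYR and TYRP1 to melanosomes, was at 2689 and 1755 in tumour and 14910 and 13395 in epidermis (-2.69 ± 0.27, adjusted p = 0.00109), and stayed called without any 1 tissue array. PDKC1 had 2426 to 2948. Mreg, which acts in melanosome transfer, differed by -1.20, and was not called without either epidermis array (adjusted p = 0.161 and 0.0773). Of 7 transport genes 1 was lower, Rab27a, which links melanosomes to myosin (-1.41, adjusted p = 0.00756; 0.117 and 0.101 without epidermis 1 and 2). Of 16 genes that assemble lysosome-related organelles 3 were higher and 3 lower, led by Hps3 (1.99), Lyst (-1.73) and Dtnbp1 (-1.45). The last pair lost its calls without either epidermis array (adjusted p from 0.0681 to 0.123), and with centring 1 was higher and 8 lower. Many of these genes also act in other cells of the skin. Of 7 relatives and partners of MITF 1 was called, Creb1 (0.72, adjusted p = 0.0399), which was -0.02 with centring and was not called without epidermis 1 or 2 (adjusted p = 0.279 and 0.311).

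Genes for signals that melanocytes receive were called higher about as often as all genes. Of 14 such genes 3 were higher and 0 lower, with a median of 0.13, while quantile normalization gave 2 and 2, and centring 1 and 3. Without either epidermis array 1 was higher. Edn1, an endothelin ligand of EDNRB, was at 3351 and 3154 in tumour, 323.9 and 329.0 in epidermis and 98.3 to 120.4 in PDKC1. Both tumours were about as high as each other and far over epidermis (3.25 ± 0.22, adjusted p = 0.000521), and the call held without any 1 tissue array. Kitl, the stem cell factor gene, was at 2008 and 1861 in tumour, 968.1 and 1195 in epidermis and 4413 to 4994 in PDKC1 (0.84 ± 0.22, adjusted p = 0.0321), and was not called with centring (0.10) or without epidermis 1 (adjusted p = 0.318) or 2 (0.167). Dkk3, a secreted glycoprotein gene, differed by 1.26 (adjusted p = 0.0129), and was not called with quantile normalization (adjusted p = 0.0528), with centring (0.192) or without either epidermis array (0.146 and 0.114).

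The genes with the most similar pattern over the 7 arrays were found for the 3 called members, by Pearson's r on log2(intensity + 16) among genes with a range of at least 2. These r values describe 7 arrays of 3 cell sources. For Tyrp1 and Pmel they rest mostly on the contrast of tissue with PDKC1. For Mitf they rest largely on tumour (2368 and 2356) against epidermis (966.4 and 1109) and PDKC1 (611.0 to 747.1). For Tyrp1 they were Zfp612 (0.999), Rapgef5 (0.996) and Pnisr (0.996), and 48 of 7714 genes reached 0.99. For Mitf they were Nipsnap1, Abcc9 and H2-Aa (0.997, 0.997 and 0.996), with 17 genes at 0.99 or over. For Pmel they were Tmppe, Pof1b and Bmp7 (0.998, 0.997 and 0.996), with 32. Mitf itself had a range under 2, so it could not appear for Tyrp1 or Pmel. No other pigment gene was in the top 3 of these members, and the remaining members were not searched.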

How the data were processed

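Biotin-labelled cRNA was hybridised to Affymetrix arrays, per the labels' protocols. The values are linear intensity per probe set as deposited by the authors, and the sources used here do not name the software. The mean of each array without its lowest and highest 2 percent was 500.0, as scaling of whole arrays gives. No further normalization was applied. Of 45101 probe sets, 64 controls, 932 with several genes and 9160 without a name in the annotation used were left out, and symbols were updated through Entrez identifiers. Tumour and epidermis were compared on log2(intensity + 16) with limma 3.58.1 in R 4.3.3 (lmFit, eBayes with a variance trend), two-sided, with Benjamini-Hochberg adjustment over 34945 probe sets. The fit was tested on simulated data. PDKC1, with 1 array per time, had no test. No arrays were identical. Precision is limited by the number of arrays.

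The genes and lists were chosen with earlier results of these data known. Named were all members, up to 3 called genes of each list by size, and the 3 genes most correlated with each called member; exceptions are stated. Of 142 list genes 131 were measured, and the others were not analysed here. Alternatives changed scaling, pseudocount, filter, variance trend, probe set choice, replicate block and the arrays included. A limit on PDKC1 brightness was added after the data were seen.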

Additional observations from a re-analysis of the deposited data

How the results depend on the processing

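Alternatives changed 1 choice at a time. Member probe sets called higher in tumour numbered 3, and 1 when each gene's probe sets were averaged, where a gene counts once; with 1 tissue array left out they numbered 2 to 3. Those called lower numbered 1, but 3 with quantile normalization, 5 with array medians set equal (centring), 0 without a variance trend and 0 with the mean of probe sets, and 0 to 2 with 1 tissue array left out. The median difference of 0.03 was -0.43 with quantile normalization, -0.57 with centring and -0.32 to 0.21 with 1 tissue array left out. In PDKC1 the members past 2-fold in 1 direction at both times numbered 2, with rises and falls counted together. That count became 5 with a pseudocount of 4, 0 with 64 and 5 at 1.5-fold. Among probe sets whose brightest array lay over its median it was 1.

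Signs turned for members that were not called. With quantile normalization the values were -0.18 for Tyrp1 (1415862_at), -0.33 for Oca2, -0.54 for Mitf (1422025_at), and -0.43 and -0.29 for Tyr (1448821_at and 1456095_at). With centring they were -0.17, -0.21, -0.57, -0.51 and -0.30 in the same order, with Mlana at -0.067 and Ednrb (1437347_at) at -0.32. With the mean of probe sets Ednrb was -0.26. Leaving out 1 tissue array gave -0.15 to 0.21 for Mitf (1422025_at), and -0.70 to 0.84 and -0.0074 to 0.80 for the same Tyr probe sets. Apart from shifts that the scalings bring by construction, the cause was not tested.

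Replicate numbers are shared between tumour and epidermis, but differences between replicates 1 and 2 correlated by -0.006 between the tissues, so the numbers were not taken as pairs. With the replicate block 3 members were higher and 1 lower, and over all probe sets 5895 were higher and 3779 lower, against 5815 and 3725. Over all probe sets 3103 were higher and 7935 lower with centring, 1877 and 823 without epidermis 1, and 2241 and 952 without epidermis 2.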
